A study of Mus musculus with 48 samples.

Results

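The 10 genes Pecam1, Cdh5, Kdr, Flt1, Tek, Vwf, Vegfa, Vegfb, Angpt2 and Nos3 were followed across 2 diets and 6 times of day in inguinal subcutaneous white adipose tissue (sWAT) of the mouse. They were taken by gene name from a list of endothelial and angiogenic genes, and all 10 were found among the 54532 genes of the count table. All 10 also passed the filter on low counts, with 19977 genes tested in all. C57BL/6 mice 8 months old had free access to food (ad-lib) or were given food in 2 windows of the night (twice-a-night feeding, TAN), and both groups otherwise carried the same labels. Poly-A RNA was sequenced in bulk from 4 libraries of each diet labelled 8AM, 12PM, 4PM, 8PM, 12AM or 4AM, 48 libraries in all. The sample labels number the 4 libraries of a group without describing the mice behind them, so that p-values measure the spread between libraries, which may be technical.

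Blood vessels are lined by endothelial cells, which are held together by adhesion molecules and read growth signals through receptor tyrosine kinases. Vegfa binds the receptors Kdr and Flt1 and drives vessel growth, Vegfb binds Flt1, and Angpt2 binds Tek (Tie2) and loosens vessel walls. In white fat, the capillary bed supplies fuel and hormones to adipocytes, and adipocytes are themselves a source of VEGF ligands.

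The libraries held 15636378 to 29913310 counts, and a member had between 11 counts (Angpt2) and 7750 counts (Pecam1) in a library. Against the per-library FPKM values published with the study, compared over 973 genes, all 48 libraries were the same as a library with an equal diet and number whose stated time differed by 12 h, and 0 were the same at an equal time. All times below are those of the sample labels, and a shift of 12 h moves both diets together. Arntl, a clock gene whose RNA peaks around the start of the light phase in mouse tissues, was at 40.4 to 51.2 CPM (counts scaled to a common library size with TMM factors) in TAN libraries labelled 8AM and at 1.46 to 7.14 CPM in those labelled 8PM. The tissue is described as a stromal vascular fraction in the series and as whole sWAT in the study, and all 8 adipocyte markers examined were above 0 in every library, with a median of 2751.5 CPM for Adipoq.

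The libraries also differed in cell composition. At 8PM, TAN replicates 1 and 2 held the highest summed levels of 10 lymphocyte markers (2416 and 2524 CPM, against 567 to 1773 CPM in ad-lib) and the lowest of 8 adipocyte markers (3460 and 2326 CPM, against 5079 to 12279 CPM in ad-lib). TAN replicates 3 and 4 at 8PM went the other way, with lymphocyte sums of 893 and 37.1 CPM and adipocyte sums of 12661 and 20655 CPM, the latter the highest of the 48 libraries. At 4PM, the lymphocyte sum was 34.2, 10.3, 319 and 18.5 CPM in TAN replicates 1 to 4 and 909 to 1597 CPM in ad-lib, and the adipocyte sum was 13417 to 16317 CPM in TAN and 5680 to 9317 CPM in ad-lib. The share of counts on TEC loci (gene models still to be experimentally tested) was 0.0294% to 0.0394% in TAN and 0.0807% to 0.104% in ad-lib at 8PM, and 0.0327% to 0.0847% against 0.0882% to 0.110% at 4PM. In bulk tissue, fewer cells of a type and less RNA per cell cannot be told apart.

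The 5 members with a promoter entry are Kdr, Flt1, Tek, Vegfa and Vegfb, and the 250 bases before the start are shown for 4 of them, the 3 receptors, whose levels correlated over the libraries, and Vegfb, which was higher in TAN at 4PM. Sequences are from RefSeq on GRCm38.p6, written 5′ to 3′ on the gene's strand: Kdr (chr5:75978456-75978705, minus strand), Flt1 (chr5:147726012-147726261, minus strand), Tek (chr4:94739039-94739288, plus strand) and Vegfb (chr19:6987652-6987901, minus strand). Capitals mark matches on either strand to CCGGAA or CAGGAA (ETS motifs), ACGTG or GCGTG (the core of the hypoxia response element) or CACGTG (the E-box, which holds ACGTG).
Kdr: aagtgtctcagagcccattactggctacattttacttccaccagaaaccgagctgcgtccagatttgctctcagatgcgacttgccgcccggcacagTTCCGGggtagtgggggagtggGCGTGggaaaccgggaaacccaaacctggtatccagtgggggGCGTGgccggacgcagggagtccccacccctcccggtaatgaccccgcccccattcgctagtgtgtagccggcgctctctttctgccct
Flt1: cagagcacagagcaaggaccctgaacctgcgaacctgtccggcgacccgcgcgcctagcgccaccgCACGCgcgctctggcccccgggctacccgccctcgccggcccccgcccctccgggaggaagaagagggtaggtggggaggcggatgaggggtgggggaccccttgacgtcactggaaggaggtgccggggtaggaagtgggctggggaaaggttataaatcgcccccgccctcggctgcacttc
Tek: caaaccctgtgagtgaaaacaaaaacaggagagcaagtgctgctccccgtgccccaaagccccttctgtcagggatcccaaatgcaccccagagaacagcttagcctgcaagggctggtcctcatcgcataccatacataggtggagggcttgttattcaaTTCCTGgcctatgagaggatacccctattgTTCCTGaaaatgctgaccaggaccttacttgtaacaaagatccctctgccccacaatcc
Vegfb: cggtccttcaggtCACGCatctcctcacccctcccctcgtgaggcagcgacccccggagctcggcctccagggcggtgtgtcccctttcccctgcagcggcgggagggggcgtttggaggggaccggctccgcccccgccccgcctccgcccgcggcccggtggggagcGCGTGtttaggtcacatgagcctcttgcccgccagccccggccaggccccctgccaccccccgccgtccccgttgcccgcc

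Of the 6 member promoters, which include both entries of Vegfa, GCGTG occurred in 4 (Kdr, Flt1, Vegfa and Vegfb), against 28.2% of all 32851 promoters of the same length. CCGGAA occurred in 1 (Kdr, 153 bases before the start; 12.0% of all promoters) and CAGGAA in 2 (Tek and Vegfa; 25.7% of all). ACGTG occurred in 1 (Vegfa; 16.6% of all) and CACGTG in 0 (6.02% of all). Kdr held GCGTG at 131 and 89 bases before its start, Tek held the reverse of CAGGAA at 89 and 59 bases, and Vegfb held GCGTG at 81 bases and its reverse at 237 bases. In Vegfa, GCGTG and ACGTG lay only in the entry at chr17:46025164-46025413, which is inside the gene (chr17:46016993-46032369, minus strand). The Vegfa entry before the start of the gene (chr17:46032378-46032627) held only the reverse of CAGGAA. These letters are descriptions of the sequence and were not tested for binding.

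On a per-length scale (TPM, counts per gene length scaled to a common total), Vegfb was the most abundant of the members in ad-lib libraries (171 ± 58.9 TPM, SD, n = 24), followed by Vegfa (101 ± 43.1), Pecam1 (94.8 ± 32.1) and Cdh5 (53.6 ± 23.8). Tek (31.7 ± 14.9 TPM), Kdr (27.8 ± 11.4), Nos3 (17.0 ± 7.02) and Flt1 (9.51 ± 3.98) came next. Angpt2 (5.68 ± 2.23 TPM) and Vwf (4.26 ± 1.63) were lowest. The order was the same in TAN libraries, from 195 ± 65.1 TPM for Vegfb to 3.75 ± 1.78 TPM for Vwf, and no neighbours in it differed beyond their spread over libraries.

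**Figure D1:**
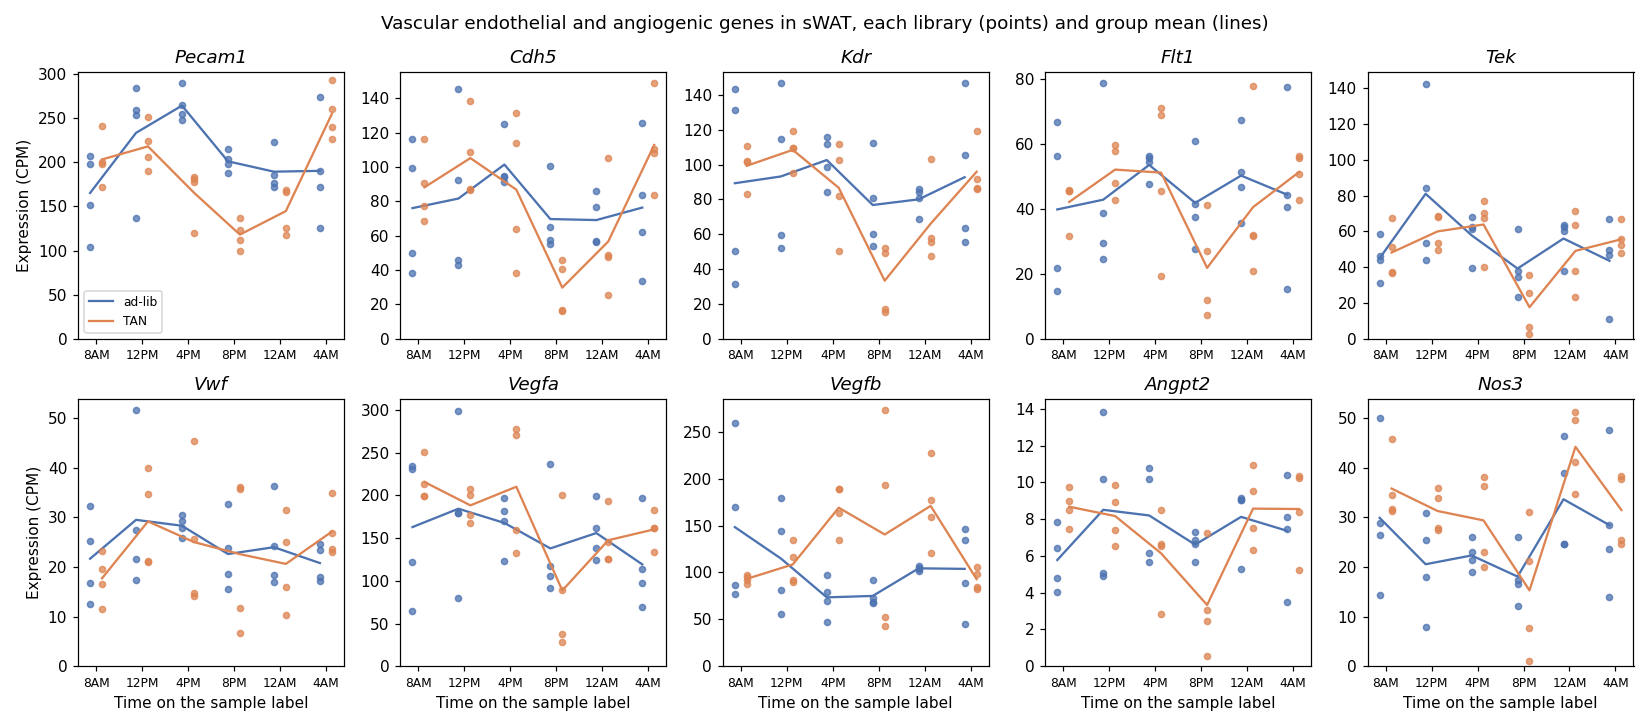
Expression of the 10 members (CPM, vertical axes from 0) at the 6 labelled times, with 1 point per library, blue for ad-lib and orange for TAN, and lines through the means of 4 libraries. The TAN means of 8 of the 10 members are lowest at 8PM, where 2 of the 4 TAN libraries sit far below the rest for Kdr, Cdh5 and Tek.

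At 8PM 3 of the endothelial members separated the diets. Pecam1, Cdh5 and Kdr fell in TAN, without overlap between the libraries of the diets (11.6% of all genes were lower without overlap), and 9 of the 10 members, all but Vegfb, had a log2 fold change below 0. With p-values of edgeR's quasi-likelihood test adjusted over all genes by the Benjamini-Hochberg method, 3 of 10 members were called at 8PM and all 3 were lower, against 7.91% of all tested genes lower and 11.7% called in either direction. At an unadjusted p under 0.05 there were 7 members, against 28.0% of all genes. The members' median log2 fold change (TAN minus ad-lib) was -0.85, against -0.10 over all genes tested.

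Among the adhesion molecules, Pecam1 (CD31, at chr11:106654217-106750628 on the minus strand of GRCm38) joins endothelial cells at their junctions and is also carried by platelets and leukocytes. At 8PM it was at 188, 215, 198 and 203 CPM in ad-lib replicates 1 to 4 and at 123, 99.8, 137 and 112 CPM in TAN replicates 1 to 4. All 4 TAN libraries lay below all ad-lib libraries, and the log2 fold change was -0.77 ± 0.21 (SE; adjusted p = 0.0167, edgeR's quasi-likelihood test). Pecam1 also fell at 4PM, from 248, 264, 255 and 290 CPM in ad-lib to 181, 183, 120 and 178 CPM in TAN. The groups did not overlap there either, with a log2 fold change of -0.67 ± 0.21 (adjusted p = 0.0283, edgeR), and 17.8% of all genes were lower without overlap at that time. At 12AM the TAN libraries (118 to 169 CPM) again lay below the ad-lib libraries (172 to 223 CPM), with a log2 fold change of -0.39 ± 0.21 that did not pass the test (adjusted p = 0.325, edgeR; 5.54% of all genes were lower without overlap).

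Cdh5 (VE-cadherin, at chr8:104101625-104144511 on the plus strand) forms the adherens junctions of endothelium. At 8PM it was at 57.8, 65.3, 55.5 and 101 CPM in ad-lib and at 16.2, 16.7, 40.6 and 45.7 CPM in TAN. TAN replicates 1 and 2 were the lowest of the 48 libraries, replicates 3 and 4 lay closer to ad-lib, and the groups did not overlap. The log2 fold change was -1.23 ± 0.42 (adjusted p = 0.0488, edgeR). At 4PM the range of 38.5 to 131 CPM in TAN enclosed that of 91.3 to 125 CPM in ad-lib.

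Of the receptors, Kdr (VEGFR2, the main signalling receptor for Vegfa, at chr5:75932827-75978458 on the minus strand) was at 53.4, 81.1, 60.1 and 112 CPM in ad-lib and at 16.9, 15.1, 49.4 and 51.9 CPM in TAN at 8PM. The highest TAN library lay just below the lowest ad-lib library. The log2 fold change was -1.20 ± 0.38 (adjusted p = 0.0367, edgeR).

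Tek, the angiopoietin receptor, was at 34.6, 37.9, 23.2 and 61.3 CPM in ad-lib and at 6.83, 2.65, 25.3 and 35.8 CPM in TAN at 8PM. TAN replicates 1 and 2 were again far below all others, replicates 3 and 4 overlapped with ad-lib, and the log2 fold change of -1.15 ± 0.47 did not pass the test (adjusted p = 0.0977, edgeR). Flt1 (VEGFR1, a receptor that also traps Vegfa) was at 27.5 to 61.0 CPM in ad-lib and at 11.8, 7.38, 26.9 and 41.3 CPM in TAN. Its groups overlapped, with a log2 fold change of -0.94 ± 0.46 (adjusted p = 0.176, edgeR).

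Several values moved with these differences at 8PM. Both lowest values of the 48 libraries belonged to TAN replicates 1 and 2 at 8PM for 7 of the 10 members. Without these replicates, a comparison added after the data were seen, the log2 fold changes were -0.69 for Pecam1 (adjusted p = 0.0759), -0.70 for Cdh5 (0.351), -0.60 for Kdr (0.346), -0.37 for Tek (0.610) and -0.30 for Flt1 (0.728), all by edgeR, so that no endothelial call remained and 10.8% of all genes were called. With the TEC share as a covariate they were -0.30 for Pecam1 (adjusted p = 0.546), -0.21 for Cdh5 (0.856) and -0.43 for Kdr (0.672), whereas with the lymphocyte markers as a covariate they were -0.76 (0.00889), -1.44 (0.00523) and -1.37 (0.00615). Leaving out 1 library at a time kept Pecam1 in 7 of 8 fits (lost without TAN replicate 2, adjusted p = 0.0503), Kdr in 3 of 8 (lost without ad-lib replicate 2, 3 or 4 or TAN replicate 1 or 2, adjusted p up to 0.121) and Cdh5 in 1 of 8 (kept only without TAN replicate 4, adjusted p up to 0.142). A separate fit of the 8 libraries at 8PM called 0 of the members and 0.34% of all genes. With the TEC share as a covariate 0.32% of all genes were called, and with the lymphocyte markers 19.6%. The TEC share did not overlap between the diets at 8PM, so that this covariate and the diet cannot be told apart there. The part of library composition in the differences was not tested.

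**Figure D2:**
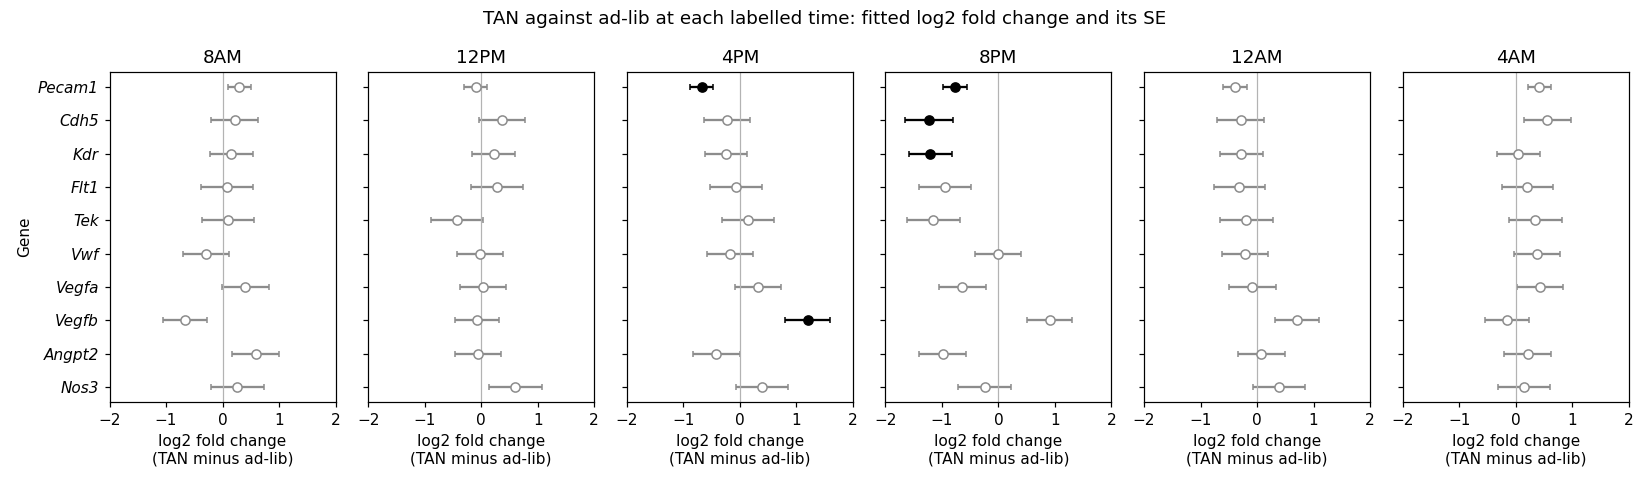
Fitted log2 fold change of each member (TAN minus ad-lib, horizontal axes from -2 to 2) at the 6 labelled times, with bars of 1 SE, filled where the adjusted p was under 0.05. Filled points are Pecam1 and Vegfb at 4PM, on opposite sides of 0, and Pecam1, Cdh5 and Kdr at 8PM, all to the left of 0.

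Among the ligands, Vegfa followed Cdh5, Kdr, Flt1 and Tek over the 48 libraries (Pearson r of 0.80 to 0.83, a description over libraries that share depth and composition). Vegfb had r of 0.04, 0.06, 0.17 and 0.40 with these genes in turn, 0.27 with Vwf and 0.57 with Nos3. After the mean of each group was removed, these were 0.27, 0.25, 0.35, 0.64, 0.47 and 0.70. Vegfb (at chr19:6982473-6987651 on the minus strand), a VEGF family member with roles in fatty acid handling of vessels, rose in TAN at 4PM, when 2 of 10 members were called (Pecam1 lower, Vegfb higher), against 6.54% of all genes higher, 8.77% lower and 15.3% in either direction. At an unadjusted p under 0.05 there were the same 2 members, against 33.2% of all genes. The members' median log2 fold change at 4PM was -0.12, against -0.09 over all genes. Vegfb was at 69.3, 97.4, 47.6 and 79.4 CPM in ad-lib and at 189, 163, 189 and 135 CPM in TAN. Every TAN library lay above every ad-lib library, and the log2 fold change was 1.20 ± 0.39 (adjusted p = 0.0365, edgeR), where 12.8% of all genes were higher without overlap.

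At 8PM Vegfb split the TAN libraries. It was at 52.7 and 42.8 CPM in TAN replicates 1 and 2 and at 193 and 273 CPM in replicates 3 and 4, against 67.1, 72.6, 68.5 and 91.6 CPM in ad-lib. The replicates thus lay on both sides of ad-lib, and the log2 fold change of 0.91 ± 0.39 did not pass the test (adjusted p = 0.119, edgeR). Without replicates 1 and 2 it was 1.63 (adjusted p = 0.00723, edgeR), in a fit that called 10.8% of all genes. At 12AM all 4 TAN libraries (120, 159, 227 and 177 CPM) lay above the ad-lib libraries (105, 102, 104 and 107 CPM), with a log2 fold change of 0.71 ± 0.39 that missed the threshold (adjusted p = 0.343, edgeR; 3.59% of all genes were higher without overlap).

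Over the 48 libraries, log2 Vegfb followed the summed adipocyte markers (Pearson r = 0.92) and ran against the lymphocyte markers (r = -0.71); these values share library, depth and tissue composition, and are given as a description. At 4PM, its log2 fold change was 0.43 (adjusted p = 0.180) with the adipocyte markers as a covariate, added after the data were seen, 0.47 (0.562) with the lymphocyte markers and 0.72 (0.302) with the TEC share, and that of Pecam1 was -0.62 (0.118), -0.64 (0.276) and -0.36 (0.279), all by edgeR. Leaving out 1 library at a time kept the Vegfb call in 2 of 8 fits (without ad-lib replicate 2 or TAN replicate 4, adjusted p up to 0.122 in the others) and the Pecam1 call in 4 of 8 (lost without ad-lib replicate 3 or 4 or TAN replicate 1 or 3, adjusted p up to 0.0925). Of all genes, 1.05% were called at 4PM with the adipocyte markers, 0% with the lymphocyte markers and 0.275% with the TEC share. The summed markers and the TEC share did not overlap between the diets at 4PM, so that these covariates and the diet cannot be told apart there. The part of composition in these differences was not tested.

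Vegfa was at 91.4 to 237 CPM in ad-lib and at 37.6, 27.9, 88.9 and 200 CPM in TAN at 8PM, with overlap, and its log2 fold change was -0.64 ± 0.41 (adjusted p = 0.326, edgeR). Its fold changes at the other times lay between -0.08 and 0.43 on the log2 scale and none passed the test. Angpt2 was at 5.66 to 7.30 CPM in ad-lib and at 0.557, 2.49, 7.24 and 3.04 CPM in TAN at 8PM (log2 fold change -0.99 ± 0.42, adjusted p = 0.113, edgeR). Of the 4 TAN libraries, 3 lay below all ad-lib libraries and 1 within them. Angpt2 lies within Mcph1 on the opposite strand (median count 297), and since the strandedness of the libraries is not given in the sources used here, reads of both genes may be mixed.

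Vwf, a clotting factor carried by large vessels, and Nos3, which makes the vessel relaxing gas nitric oxide, were called at no time. At 8PM Vwf was at 15.5 to 32.6 CPM in ad-lib and at 11.8, 6.70, 35.7 and 36.1 CPM in TAN, on both sides of ad-lib. Nos3 was at 12.2 to 26.1 CPM in ad-lib and at 7.64, 1.16, 21.3 and 31.1 CPM in TAN, again on both sides. Over all times the log2 fold changes lay between -0.29 and 0.38 for Vwf and between -0.24 and 0.61 for Nos3. Nos3 overlaps Atg9b (median count 51) and Gm15587 (median count 0) on the opposite strand, with the same limit as for Angpt2.

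At the remaining times no member was called by edgeR, DESeq2 or limma voom. At 8AM and 12PM, 0 of 10 members were called by edgeR (0.0150% and 0.0901% of all genes) and 0 had an unadjusted p under 0.05 (6.58% and 7.37% of all genes). At 12AM there were 0 called (0.150% of all genes) and 0 at an unadjusted p under 0.05 (17.5% of all genes). At 4AM there were 0 called (0% of all genes) and 1 at an unadjusted p under 0.05 by edgeR (2.64% of all genes), Pecam1 with a log2 fold change of 0.42 ± 0.21 (adjusted p = 1). The members' median log2 fold changes were 0.18 at 8AM, 0.01 at 12PM, -0.20 at 12AM and 0.28 at 4AM, against 0.01, 0.04, -0.14 and 0.00 over all genes. Over the mean of the 6 times, 0 members were called by the 3 tools (5.42% of all genes by edgeR), and 1 by edgeR had an unadjusted p under 0.05 (21.5% of all genes). It was Pecam1, with a log2 fold change of -0.20 ± 0.08 (edgeR, adjusted p = 0.148).

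Whether the effect of TAN differed between times was tested directly. Pecam1 was the 1 of 10 members called (adjusted p = 0.0203 by edgeR's F test; 8.98% of all genes were called), with fold changes from -0.77 at 8PM to 0.42 at 4AM on the log2 scale. Vegfb came next (adjusted p = 0.0752) and made 2 members at an unadjusted p under 0.05 (30.2% of all genes), with fold changes from -0.67 at 8AM to 1.20 at 4PM. Without TAN replicates 1 and 2 at 8PM both were called, Pecam1 with an adjusted p of 0.0170 and Vegfb with 0.00549 (edgeR's F test). In that fit 17.4% of all genes were called. With the TEC share as a covariate the adjusted p of Pecam1 was 0.571 (edgeR's F test), and 0.01% of all genes were called.

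Over the day within ad-lib, 0 of 10 members were called by edgeR (0.0551% of all genes), DESeq2 or limma voom. 1 had an unadjusted p under 0.05 by edgeR (6.67% of all genes), Pecam1, with group means from 165 CPM at 8AM to 264 CPM at 4PM (adjusted p = 0.688, edgeR). Within TAN, 5 of 10 had an unadjusted p under 0.05 (42.2% of all genes) and 4 of 10 were called by edgeR (23.0% of all genes): Pecam1 (adjusted p = 0.00233), Cdh5 (0.0127), Kdr (0.0181) and Tek (0.0476). Their lowest means were all at 8PM. Pecam1 ran from 118 CPM at 8PM to 255 CPM at 4AM, Cdh5 from 29.8 CPM to 113 CPM at 4AM, Kdr from 33.3 CPM to 108 CPM at 12PM and Tek from 17.7 CPM to 63.9 CPM at 4PM. Without TAN replicates 1 and 2 at 8PM, Pecam1 (adjusted p = 0.0110) was still called and Cdh5 (0.132), Kdr (0.220) and Tek (0.446) were not, while Vegfb was (0.0151). In that fit 18.4% of all genes were called. Leaving out TAN replicate 1 or 2 at 8PM alone also ended the calls of Cdh5 (adjusted p up to 0.0541) and Kdr (up to 0.0809), and Tek was called in 3 of 24 fits that left out a TAN library.

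**Figure D3:**
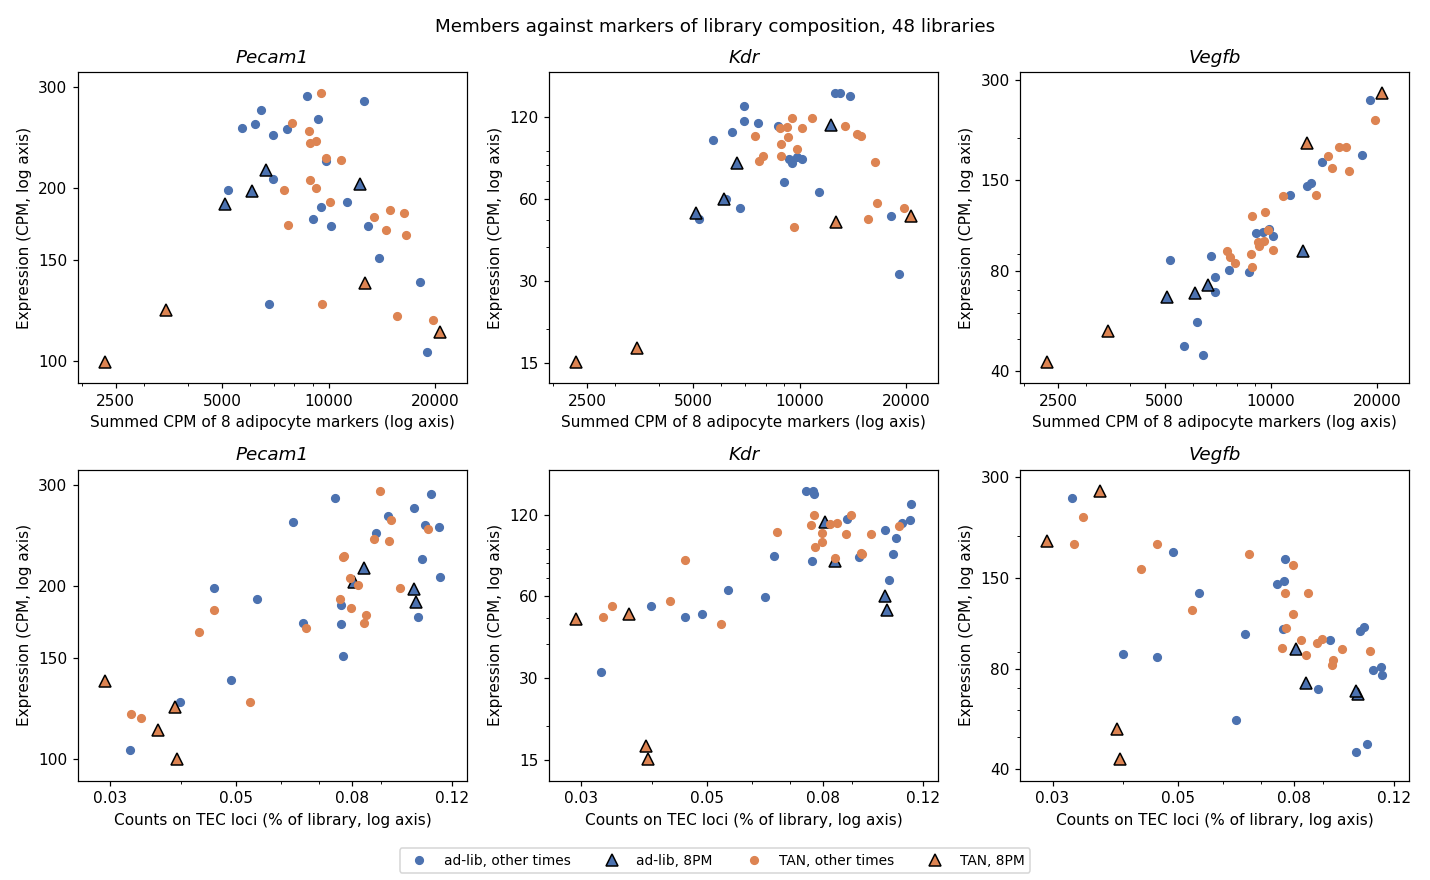
Pecam1, Kdr and Vegfb (CPM, log axes) against the summed CPM of 8 adipocyte markers (top row) and the percentage of counts on TEC loci (bottom row), with 1 point per library, triangles for 8PM. Vegfb climbs with the adipocyte markers (r = 0.92 of log values over 48 libraries), Pecam1 climbs with the TEC share (r = 0.80), and the 2 TAN libraries at the far left of the top row are the lowest for Kdr.

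Several members moved together from library to library. Over 48 libraries, the 6 pairs among Cdh5, Kdr, Flt1 and Tek had Pearson r of 0.77 to 0.93 on log2 CPM, and 0.68 to 0.93 after the mean of each group was removed. The ligand Vegfa had r of 0.80 to 0.83 with these 4, within the same range, and Angpt2 had 0.61 to 0.67. Pecam1 had r of 0.56 to 0.75 with them and Vwf 0.36 to 0.56, and r between Pecam1 and Nos3 was 0.16, so that the endothelial members did not all vary as one. Over all 45 pairs the median was 0.58 and the lowest value was -0.45, between Pecam1 and Vegfb. These points share library, depth and composition. Pecam1, Cdh5 and Kdr had r of 0.80, 0.73 and 0.69 with the TEC share, and Tek had r of 0.95 with the summed markers of mural cells, the pericytes and smooth muscle that wrap vessels.

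**Figure D4:**
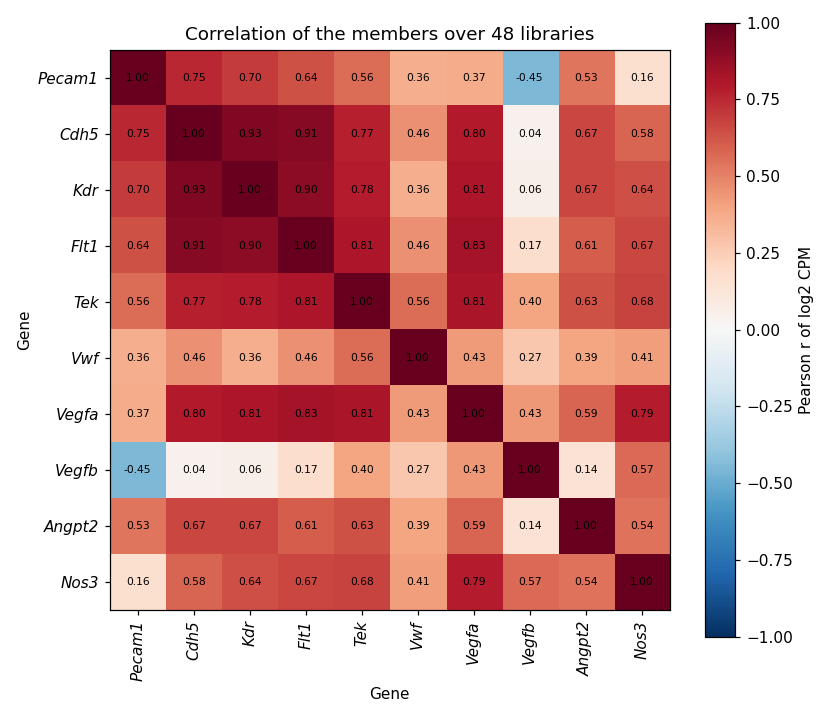
Pearson correlation of log2 CPM between each pair of members over 48 libraries, red for positive and blue for negative values, printed in each cell. Cdh5, Kdr, Flt1 and Tek have values from 0.77 to 0.93 with each other, the ligand Vegfa has 0.80 to 0.83 with them, Pecam1 (0.56 to 0.75) and Vwf (0.36 to 0.56) have less, and the row of Vegfb holds the lowest value, -0.45 with Pecam1.

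Outside the members, the genes most like the mean of Pecam1, Cdh5, Kdr, Flt1 and Tek over the 48 libraries were Ptprb (Pearson r = 0.97), an endothelial phosphatase, Adgrf5 (0.96), Arhgef12 (0.95), Tjp1 (0.94), a tight junction protein, and Nrp1 (0.93), a co-receptor of VEGF. Those most like Vegfa were Wwc2 (0.91), Jcad (0.91), Lamc1 (0.90), a laminin chain, Klhdc7a (0.90) and Npr2 (0.90), a natriuretic peptide receptor. These values are descriptions over libraries that share depth and composition.

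Of 100 further vessel and hypoxia genes in 8 lists, 9 were called at 4PM (8 lower and 1 higher in TAN; 22 at an unadjusted p under 0.05) and 9 at 8PM (8 lower and 1 higher; 22 unadjusted), against 15.3% and 11.7% of all genes called and 33.2% and 28.0% at an unadjusted p under 0.05. At 8AM, 12PM, 12AM and 4AM 0 were called by edgeR, with 9, 11, 9 and 2 at an unadjusted p under 0.05, against 6.58%, 7.37%, 17.5% and 2.64% of all genes. Over the mean of the times 7 were called (5 higher and 2 lower), against 5.42% of all genes. For variation between times, 28 were called within TAN (23.0% of all genes) and 0 within ad-lib by edgeR (0.0551% of all genes; 10 at an unadjusted p under 0.05, against 6.67%).

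Among 18 genes of endothelial identity, 1 was called at 4PM, S1pr1, a sphingolipid receptor (91.6 ± 18.4 CPM in TAN and 180 ± 16.4 CPM in ad-lib, SD, n = 4; log2 fold change -0.97 ± 0.26 SE, adjusted p = 0.0153, edgeR), and 1 at 8PM, Mmrn2, an endothelial matrix protein (9.02 ± 6.45 and 23.2 ± 3.28 CPM; -1.36 ± 0.39, adjusted p = 0.0225). Over all genes, 15.3% were called at 4PM and 11.7% at 8PM. The list's median log2 fold change was -0.16 at 4PM and -0.39 at 8PM. Of 15 transcription factors of endothelium, 4 fell at 4PM (8.77% of all genes were lower then and 7.91% at 8PM), led by Ets1 (-2.18 ± 0.60) and Hhex (-2.04 ± 0.53), and 2 fell at 8PM, Erg (-2.12 ± 0.61) and Mef2c (-1.54 ± 0.40). Ets1 and Mef2c are also well expressed in lymphocytes, whose 10 markers had a median log2 fold change of -3.63 at 4PM and 0.22 at 8PM. With the lymphocyte markers as a covariate no gene of the table was called at 4PM. The log2 fold changes were then -0.40 for S1pr1 (adjusted p = 0.452), -0.34 for Ets1 (0.669) and -0.55 for Hhex (0.408), all by edgeR. The summed lymphocyte markers did not overlap between the diets at 4PM, so that this covariate and the diet cannot be told apart there. Over the mean of the times Mef2c was the 1 of the 15 called, and lower (-0.66 ± 0.16, adjusted p = 0.0129, edgeR), against 5.42% of all genes. Its call held in 48 of 48 fits that left out a library. It also held without TAN replicates 1 and 2 at 8PM (-0.66, adjusted p = 0.0121, edgeR) and with the lymphocyte covariate (-0.52, 0.00511).

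A further list of 12 genes held VEGF and angiopoietin ligands and receptors and other vessel genes, among them Angptl4 and Apln. In this list 1 fell at 4PM (Nrp2, a co-receptor, in 4 of 8 fits that left out a library) and 3 at 8PM. Over all genes, 8.77% were lower at 4PM and 7.91% at 8PM. At 8PM Flt4, the receptor of lymphatic vessels, was at 0.783 ± 0.608 CPM in TAN and 5.43 ± 2.18 CPM in ad-lib (log2 fold change -2.78 ± 0.74 SE, adjusted p = 0.0149, edgeR), with 0 to 29 counts in TAN libraries. Angptl4, a fasting-induced inhibitor of lipoprotein lipase, was at 43.0 ± 24.1 CPM in TAN and 176 ± 140 CPM in ad-lib (-2.03 ± 0.42, adjusted p = 0.00341). Without TAN replicates 1 and 2, Angptl4 remained called at 8PM (-1.47, adjusted p = 0.0471, edgeR), while Flt4 (-2.47, 0.0522), Mef2c (-1.53, 0.0519), Erg (-1.23, 0.157) and Mmrn2 (-0.69, 0.227) were not called at that time. Apln, a vessel growth peptide, was higher over the mean of the times (0.63 ± 0.16, adjusted p = 0.0199, edgeR), in 48 of 48 fits that left out a library. It was the 1 of 12 called there, against 5.42% of all genes, and the list's median log2 fold change was -0.21.

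Of 10 inhibitors of vessel growth, Sema3a, a repellent guidance factor that binds neuropilins, was the 1 called at 4PM, at 8PM and over the mean of the times (15.3%, 11.7% and 5.42% of all genes). It was at 1.51 ± 0.79 CPM in TAN and 11.5 ± 2.32 CPM in ad-lib at 4PM (log2 fold change -2.92 ± 0.52 SE, adjusted p = 0.00420, edgeR), and at 2.76 ± 0.99 and 11.2 ± 4.11 CPM at 8PM (-2.01 ± 0.50, adjusted p = 0.0106). Over the mean of the times it fell by 1.13 on the log2 scale (adjusted p = 0.000449), in 48 of 48 fits that left out a library, and it remained called at 8PM without TAN replicates 1 and 2 (-2.04, adjusted p = 0.0367). No gene among 11 Notch and ephrin, 10 adipose capillary and 12 vascular tone genes was called at any single time by edgeR. At 8PM 1, 2 and 2 had an unadjusted p under 0.05 (28.0% of all genes), and at 4PM 1, 4 and 1 (33.2% of all genes).

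Of 12 hypoxia and HIF genes, 4 were higher over the mean of the times and 0 lower (5.42% of all genes were called), led by Egln3, an oxygen-sensing hydroxylase (0.60 ± 0.14 on the log2 scale, adjusted p = 0.00912, edgeR), and Pdk1, a brake on pyruvate oxidation (0.53 ± 0.09, adjusted p = 0.000246), each in 48 of 48 fits that left out a library. The list's median was -0.01. At 4PM Ldha was higher (1.44 ± 0.32, adjusted p = 0.00818) and Ankrd37 lower (-4.00 ± 0.79, adjusted p = 0.00618; 0 to 9 counts in TAN libraries), and at 8PM Egln1 was higher (0.83 ± 0.25, adjusted p = 0.0298) and Ppargc1a lower (-1.56 ± 0.49, adjusted p = 0.0341), each of the latter 2 in 3 of 8 fits that left out a library. Without TAN replicates 1 and 2 at 8PM, Egln1 remained called (0.996, adjusted p = 0.0292, edgeR) and Ppargc1a was not (-0.90, 0.277).

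Markers of other vessel cells were counted in the same way, beside 8.77% of all genes lower at 4PM and 7.91% at 8PM. Of 6 lymphatic endothelial markers, Lyve1 was the 1 called at 4PM (13.6 CPM in TAN and 45.9 CPM in ad-lib, means of 4), and the list's summed level was 21.7 to 73.8 CPM in TAN and 101 to 134 CPM in ad-lib. Chst4, a marker of the high endothelial venules of lymph nodes, had 0 counts in all 4 TAN libraries at 4PM and 35 to 122 counts in ad-lib, and the 5 venule markers summed to 8.43 to 29.1 CPM in TAN and 55.1 to 78.9 CPM in ad-lib. Of 10 mural cell markers, Abcc9 fell at 4PM (-0.95 ± 0.31, adjusted p = 0.0364, edgeR), and Abcc9 (-1.45 ± 0.31, adjusted p = 0.00456) and Pdgfrb (-1.01 ± 0.28, adjusted p = 0.0208) fell at 8PM. Over the mean of the times Cspg4 was higher (0.60 ± 0.15, adjusted p = 0.0163, edgeR) and Abcc9 lower (-0.50 ± 0.13, adjusted p = 0.0170). Each was called in 48 of 48 fits that left out a library. The list's median log2 fold change there was -0.17, and 5.42% of all genes were called. Of the fits that left out 1 library, the call of Lyve1 held in 1 of 8 and that of Abcc9 at 4PM in 3 of 8. Without TAN replicates 1 and 2 at 8PM, neither Abcc9 (-1.10, adjusted p = 0.0576, edgeR) nor Pdgfrb (-0.55, 0.242) was called at that time. Of 5 platelet markers, 4 were tested and 0 were called at any time by edgeR. At an unadjusted p under 0.05 there were 2 at 8AM, 2 at 4PM, 1 at 8PM and 1 at 12AM. Over all genes these shares were 6.58%, 33.2%, 28.0% and 17.5%. Gp1bb was at 0 in all 48 libraries.

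Among lymphocyte markers 3 of 10 fell at 4PM and all 10 had an unadjusted p under 0.05, among them Cd22 (-4.93 ± 1.63, adjusted p = 0.0381, edgeR), whose call held in 3 of 8 fits that left out a library. Over all genes, 8.77% were lower and 6.54% higher at 4PM, 33.2% had an unadjusted p under 0.05, and 7.91% were lower at 8PM. Of 8 adipocyte markers, Retn was higher at 4PM (1.56 ± 0.42, adjusted p = 0.0173). Of 6 macrophage markers, Csf1r fell at 4PM (-1.24 ± 0.33, adjusted p = 0.0159) and Mrc1 at 8PM (-1.58 ± 0.42, adjusted p = 0.0156), and of 6 progenitor markers Pdgfra fell at 8PM (-1.07 ± 0.32, adjusted p = 0.0259). Without TAN replicates 1 and 2 at 8PM, neither Mrc1 (-0.82, adjusted p = 0.180, edgeR) nor Pdgfra (-0.72, 0.199) was called. Of 7 skeletal muscle markers, 6 were tested and 0 were called at any time by edgeR. At 4AM 2 had an unadjusted p under 0.05, against 2.64% of all genes.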

How the data were processed

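Bulk RNA-seq of 48 sWAT libraries was analysed, grouped by the diet and time on the sample labels. The authors deposited raw counts per gene without normalization, and every sample column was used (0 unused). An FPKM table with the authors' mean of each group in 12 columns was not used. Per the submitters' processing notes the tools named are TopHat 1.3.3, DESeq2 1.20.0, limma and edgeR, and the builds mm9, mm10 and GRCm38, with no roles. Strandedness and the counting tool are not given in the sources used here. The coordinates of all 10 members are those of GENCODE M21 on GRCm38.

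Counts were filtered by filterByExpr (minimum count 10), scaled by TMM and tested by edgeR 4.0.16 in R 4.3.3 with 1 robust quasi-likelihood fit of the 12 groups. Genes were called at a Benjamini-Hochberg adjusted p under 0.05 over all 19977 genes. Single contrasts gave the effect of TAN at each time and over their mean, and F tests of 5 contrasts gave the difference of the effect between times and the variation over the day. CPM used TMM factors, log2 CPM a prior count of 2, and TPM the deposited gene lengths. Alternatives were DESeq2 1.42.0, limma voom (limma 3.58.1), RLE factors, no filter, a replicate block, an absolute log2 fold change above 1, separate fits per time, covariates for lymphocyte, muscle and TEC counts, and leaving out each library. An adipocyte covariate and the fit without 2 libraries were added after the data were seen. The scripts were tested on simulated counts.

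The members and lists were chosen with earlier results of these data known. Named genes were all members, the 2 called genes of largest absolute fold change in each list at each time and over the mean, and the 5 genes most correlated with the mean of 5 endothelial members or with Vegfa; Gp1bb was named after its values were seen. One gene that this rule names is not reported here.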

Additional observations from a re-analysis of the deposited data

Results flagged for a closer look

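In 6 of 120 groups of 4 libraries, 1 library stood far from the other 3 of its group, where chance gives about 1 in 20. The gap to the nearest library was 0.917 of the group's range for Pecam1 in TAN at 4PM (replicate 3, 120 CPM, against 178 to 183 CPM), 0.892 for Cdh5 in ad-lib at 4PM (replicate 4, 125 CPM, against 91.3 to 95.0 CPM) and 0.834 for Kdr in TAN at 4AM (replicate 1, 119 CPM, against 86.1 to 91.6 CPM). It was 0.971 for Flt1 in TAN at 8AM (replicate 1, 31.6 CPM, against 45.5 to 45.9 CPM), 0.874 for Tek in ad-lib at 12AM (replicate 3, 37.7 CPM, against 60.3 to 63.6 CPM) and 0.963 for Angpt2 in ad-lib at 12AM (replicate 1, 5.27 CPM, against 9.01 to 9.16 CPM).

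The effect of TAN differed between the times for Pecam1 (adjusted p = 0.0203, edgeR's F test) and, by the same test, for 9 of 100 other vessel and hypoxia genes. Over all genes, 8.98% were called. The adjusted p was 0.0124 for Sema3a, 0.0191 for Nrp2, 0.0254 for Angptl4, 0.0270 for Mef2c, 0.0270 for Ankrd37, 0.0369 for Flt4, 0.0447 for Timp4, 0.0450 for Hif1a and 0.0469 for Rgcc. Of 48 fits that left out a library, the call held in 48 for Sema3a, Nrp2 and Mef2c, 47 for Angptl4 and 46 for Ankrd37. It held in 35 for Flt4, 22 for Timp4, 18 for Rgcc and 16 for Hif1a. With the lymphocyte markers as a covariate, Sema3a (adjusted p = 0.0256, edgeR's F test), Angptl4 (0.00651) and Hif1a (0.0456) were called. The others were not (0.0537 to 0.690).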

How the results depend on the processing

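No called difference of a member changed direction under the alternatives run. Outside the members, Cd22 at 4PM had a log2 fold change of 0.45 with the lymphocyte covariate (adjusted p = 0.772, edgeR), against -4.93 without it. The counts of members called at 8AM, 12PM, 12AM, 4AM and over the day within ad-lib were 0 under all alternatives. At 4PM, 2 members were called, against 1 with no filter on low counts (without Vegfb, adjusted p = 0.0679, edgeR; 4.96% of all genes). With an absolute log2 fold change above 1, 1 was called. The lymphocyte, TEC and adipocyte covariates gave 0 members, against 0%, 0.275% and 1.05% of all genes. At 8PM, 3 were called, against 5 by limma voom (18.6% of all genes), 6 with the lymphocyte covariate (19.6%) and 8 with the adipocyte covariate (23%). An absolute log2 fold change above 1 gave 2 (without Pecam1). There was 1 with no filter (3.87%) and 1 without TAN replicates 1 and 2 (10.8%). The TEC covariate (0.32%) and a separate fit of that time (0.34%) gave 0. Pecam1 was at -0.75 in the separate fit (adjusted p = 0.0889, edgeR). For the effect between times 1 was called, against 2 by DESeq2 (20.2% of all genes), limma voom (22%) or without those replicates (17.4%). There were 4 with the lymphocyte (6.79%), 5 with the adipocyte (13.8%) and 0 with the TEC covariate (0.01%). Over the day within TAN 4 were called, against 5 by DESeq2 (36.7% of all genes), 3 with no filter (8.89%) and 7 by limma voom (33.3%). The lymphocyte (18.3%), muscle (28%) and adipocyte (22.8%) covariates each gave 7. There were 2 without those replicates (18.4%) and 0 with the TEC covariate (9.28%). Over the mean of the times 0 were called, against 1 with the adipocyte covariate (7.33% of all genes) and 1 without those replicates (12.3%). Leaving out each library gave 0 to 2 members at 4PM, 1 to 6 at 8PM (6 without TAN replicate 4), 1 to 2 for the effect between times and 1 to 6 within TAN. The cause of these changes was not tested. The adipocyte covariate and the omission of both replicates were chosen after seeing the data.

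With a replicate block 2 members were called at 4PM (14.1% of all genes), 3 at 8PM (10.7%) and 1 for the effect between times (6.84%). Over the day within TAN there were 3 (20.6% of all genes; Tek lost, adjusted p = 0.0560, edgeR), with 0 elsewhere. The labels give only a number, and same-numbered libraries did not deviate together: 5 of 24 pairs had a correlation over 0.1 (median 0.03, range -0.33 to 0.50), and at 0 of 6 times did all pairs. Depth limited Angpt2 most, with as few as 11 counts in a library.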

Other observations

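Vegfb followed the adipocyte markers across libraries, and the genes most like it, chosen after its values were seen, were Gstm1 (Pearson r = 0.94 of log2 CPM over 48 libraries) and Slc48a1 (0.94). These libraries share depth and composition, and no test was made. At 12AM, Nos3 was at 34.8, 41.2, 51.3 and 49.7 CPM in TAN and at 24.7, 24.6, 46.5 and 38.9 CPM in ad-lib, and the groups overlapped.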
